A study of Mus musculus with 19 samples.

Results

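The unfolded protein response and the integrated stress response were followed through 36 genes in the striatum of 6-month-old mice that carry different forms of mutant huntingtin (HTT). The 36 genes were taken from a list of pathway genes, and a gene was kept if it had 10 or more reads in at least 4 of the 19 mice. All 36 of the 54232 genes counted met that rule, and all 36 also passed the filter for testing, which left 18521 genes in the tests. They were divided into a PERK-ATF4 arm of 13 genes, an ATF6 arm of 15 genes and an IRE1 arm of 8 genes. RNA was sequenced from 7 wild-type (WT) mice and from 4 mice each of the KI-96, KI-571 and KI-FL genotypes, all on the C57/BL/6 background. KI-FL mice carry full-length mutant HTT, with an expanded polyQ repeat, in the endogenous mouse gene. In KI-571 and KI-96 mice the same mutant allele was cut by CRISPR/Cas9 in the zygote, so that N-terminal fragments are made, of which the KI-96 fragment is the shorter. The truncated lines were kept by crosses with WT mice, KI mice were studied as heterozygotes, so that a WT allele remains, and the KI-571 line goes back to a single founder.

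These pathways act when unfolded proteins collect in the endoplasmic reticulum (ER) or when amino acids, heme or other supplies run short. PERK (Eif2ak3) and its sister kinases phosphorylate eIF2α, which slows translation in general and favours that of ATF4, a factor for amino acid synthesis and stress genes. ATF6 leaves the ER, is then activated by cleavage and turns on ER chaperones. IRE1 (Ern1) instead splices the Xbp1 mRNA, and spliced XBP1 drives genes of ER-associated degradation (ERAD). Cleavage, phosphorylation and splicing are not read by counts per gene, so that only mRNA levels were compared. The arms overlap, since many chaperone genes respond to both ATF6 and XBP1, and Xbp1 is itself induced by ATF6.

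The smallest library held 12669809 reads on genes and the largest 26388542 (median 18202412). Levels are given as CPM, that is the reads of a gene relative to all reads counted in its library, scaled between libraries by TMM, and 3 reads, the floor used here, correspond to 0.114 to 0.237 CPM, which covers counting error only. KI-FL replicate 4 stood apart, with 3186 of the tested genes at 0 against at most 222 in any other mouse, and Atf3, Chac1 and Derl3 were among them. KI-96 replicate 3 stood apart as well, with 24.2% of its reads assigned to no feature by the counter against 11.1% to 15.99% in the others. It was the lowest of all 19 mice in 11 of the 36 members, among them Atf4, Ddit3, Ppp1r15a and Herpud1. Its part in the KI-96 values was not tested, and values without it stand beside the results that rest on it. Xist lay at 886 to 1615 CPM in all 4 KI-96 mice, in WT replicate 1 and in KI-FL replicate 2 and at no more than 5.05 CPM in the other 13, so that the KI-96 genotype and high Xist can be told apart only through 2 mice. The 10 markers of striatal projection neurons summed to 5563 to 8873 CPM in WT and to 5068 to 8232 CPM in KI mice, with none at 0 in any mouse. The 8 markers of cortical neurons summed to 640 to 3171 CPM in WT (median 966) and to 644 to 2123 CPM in KI mice. WT replicate 3 held the highest cortical sum and was the lowest of all 19 mice for Hspa5, Canx, P4hb and Ppp1r15b. The part of cortical tissue in the levels was not tested. In these bulk samples, fewer cells of a type and less RNA per cell cannot be told apart.

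Response elements in the promoters are shown first because the arms are defined by the factors known to act at them. RefSeq promoters on build GRCm38.p6 were available for 31 of the 36 members, and the 250 bases before the start were searched on both strands for 5 motifs. At the ER stress response element (ERSE), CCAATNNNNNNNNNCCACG, ATF6 and XBP1 are known to act together with NF-Y. Of the members with a promoter, 6 of 12 in the ATF6 arm, 2 of 7 in the IRE1 arm and 0 of 12 in the PERK-ATF4 arm carried it. Of all 32851 promoters 0.113% did. Members were counted once, and Eif2ak4 and Derl2 have 2 promoters each. The related ERSE-II, ATTGG and CCACG spaced by 1 base, was found in Herpud1 alone among the members (0.0304% of all promoters). The cyclic AMP response element TGACGTCA was found only in Ppp1r15a (1.55% of all promoters). The core of the unfolded protein response element, TGACGTGG, which shares letters with that element, is carried by 0.563% of all promoters and by 0 of 31 members. The ATF4 composite site, in the letters TGATGCAAT, is carried by 0.167% and again 0 of 31. Motifs were matched in exactly the letters given, with N for any base. Variants of a site were not counted, so that 0 matches do not show that a member lacks such a site. The ATF6-arm promoters with an ERSE and that of Herpud1 are given 5′ to 3′ in the direction of the gene, with the matches in capitals. Bases inside the annotated gene were left off, and for Hspa5, whose match lies inside it, the match and its flanks are shown.
Hspa5 (chr2:34772020-34772048, plus strand): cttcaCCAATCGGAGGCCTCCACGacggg
Hsp90b1 (chr10:86705510-86705694, minus strand): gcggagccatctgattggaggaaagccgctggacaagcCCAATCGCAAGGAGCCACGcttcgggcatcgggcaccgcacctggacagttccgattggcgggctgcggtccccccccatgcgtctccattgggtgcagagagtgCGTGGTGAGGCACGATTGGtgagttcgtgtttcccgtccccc
Calr (chr8:84846935-84847181, minus strand): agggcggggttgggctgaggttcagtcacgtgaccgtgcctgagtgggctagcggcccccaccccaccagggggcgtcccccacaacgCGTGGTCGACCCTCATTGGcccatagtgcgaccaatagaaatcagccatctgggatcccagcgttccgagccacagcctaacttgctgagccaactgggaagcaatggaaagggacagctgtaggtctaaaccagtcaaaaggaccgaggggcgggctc
Canx (chr11:50325674-50325923, minus strand): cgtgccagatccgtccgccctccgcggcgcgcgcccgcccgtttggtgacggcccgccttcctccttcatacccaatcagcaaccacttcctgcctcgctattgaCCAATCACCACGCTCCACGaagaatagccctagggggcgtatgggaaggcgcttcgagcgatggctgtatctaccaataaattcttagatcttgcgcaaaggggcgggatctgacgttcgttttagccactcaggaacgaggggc
Pdia6 (chr12:17266339-17266544, plus strand): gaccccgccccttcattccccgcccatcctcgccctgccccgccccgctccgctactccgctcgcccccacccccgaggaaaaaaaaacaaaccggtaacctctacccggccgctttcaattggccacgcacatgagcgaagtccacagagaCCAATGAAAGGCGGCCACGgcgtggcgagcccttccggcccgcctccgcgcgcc
Creld2 (chr15:88819396-88819645, plus strand): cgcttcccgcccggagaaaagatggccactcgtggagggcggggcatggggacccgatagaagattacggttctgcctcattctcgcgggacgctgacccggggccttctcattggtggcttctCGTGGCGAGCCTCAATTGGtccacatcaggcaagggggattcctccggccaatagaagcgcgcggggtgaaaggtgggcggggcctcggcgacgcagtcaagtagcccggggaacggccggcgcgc
Herpud1 (chr8:94386179-94386428, plus strand): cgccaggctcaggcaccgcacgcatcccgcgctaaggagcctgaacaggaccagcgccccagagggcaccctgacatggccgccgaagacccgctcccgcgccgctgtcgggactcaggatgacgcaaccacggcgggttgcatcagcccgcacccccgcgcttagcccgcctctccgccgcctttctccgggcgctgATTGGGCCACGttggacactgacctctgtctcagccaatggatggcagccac

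The match ended 47 bases before the RefSeq start in Hspa5, 80 in Pdia6 and 42 in Herpud1, and farther upstream in Calr (144), Canx (127) and Creld2 (108). Hsp90b1 carried 2 matches in opposite directions, ending 194 and 89 bases before the start. The 2 IRE1-arm matches were in Syvn1 and Derl3. A match is a description of the letters and was not tested for binding.

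In WT striatum the levels of the members spanned a wide range once divided by exon length. Calreticulin (Calr), a lectin chaperone that binds calcium, was the highest at 113 ± 28.6 CPM per kb (SD, n = 7), followed by calnexin (Canx) at 70.2 ± 5.16 and the Hsp70 of the ER, BiP (Hspa5), at 60.8 ± 22.6. The WT range of Hspa5, 40.2 to 106, took in that of Canx, 61.7 to 78.1 CPM per kb. Among the factors, Atf4 lay at 26.5 ± 3.17 and Xbp1 at 24.1 ± 5.63 CPM per kb, each mean within the SD of the other. The sensors Atf6, Eif2ak3 and Ern1 were lower, at 9.82 ± 1.48, 3.85 ± 0.22 and 1.68 ± 0.17, and these 3 ranges did not overlap, whereas Atf6b lay at 23.7 ± 3.45, within the spread of Atf4 and Xbp1, Eif2ak1 at 9.10 ± 0.565, within that of Atf6, and Eif2ak4 at 3.82 ± 0.472, within that of Eif2ak3. Atf3, a stress-induced factor, was the lowest at 0.409 ± 0.16 CPM per kb. Of the ATF6 arm, the WT mice differed most, relative to the level, in Sdf2l1, Hspa5 and Pdia4, where Sdf2l1 ranged from 6.18 to 18.0 and Hspa5 from 40.2 to 106 CPM per kb, whereas P4hb ranged only from 36.1 to 42.4.

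The first question was whether any form of mutant HTT changed the mRNA of the 3 arms. No member passed an adjusted p of 0.05 in edgeR's quasi-likelihood test, with all 19 mice in a single fit, in any of 7 comparisons. Over all genes, 0.027% passed for KI-96, 0.0324% for KI-571, 0.194% for KI-FL and 0.054% for the mean of the 3 KI genotypes, each against WT. Between KI genotypes 0.0054% passed for KI-96 against KI-571, 0% for KI-96 against KI-FL and 0.0864% for KI-571 against KI-FL. DESeq2 called 1 member, Eif2ak1, in 2 of these comparisons, as described with that gene.

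At an unadjusted p under 0.05, 1 member had a higher level in KI-96 than in WT mice, and for KI-571 and KI-FL mice there were 4 and 5, whereas 0 were lower in any of them. Of all tested genes, 4.36% were above and 3.09% below WT in KI-96, 3.89% and 3.83% in KI-571, and 7.89% and 8.84% in KI-FL. The 5 members in KI-FL are 13.9% of the 36 and the 4 in KI-571 are 11.1%, so that their shares in the upward direction lay above the background, whereas in either direction KI-FL lay below its background of 16.7% of all genes. The single member in KI-96 (2.78%) lay below the background. For the mean of the KI genotypes, 4 members were higher and 0 lower, beside 6.03% and 6.84% of all genes. These counts moved with single mice. Without WT replicate 2 they became 3, 5 and 10, without WT replicate 3 they were 1, 1 and 3, and against WT replicates 1 to 4 alone they were 0, 0 and 2.

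By arm, the ATF6 targets and cofactors lay mostly above WT. In the ATF6 arm, 11 of 15 members had a higher estimate in KI-96, 13 of 15 in KI-571 and 14 of 15 in KI-FL, and all 15 had one in the mean of the KI genotypes. The median log2 fold change of the arm was 0.06 in KI-96, 0.16 in KI-571 and 0.17 in KI-FL, compared with -0.02, -0.01 and -0.03 over all tested genes. In the PERK-ATF4 arm 7, 5 and 8 of 13 members had a higher estimate, with medians of 0.02, -0.01 and 0.09, and in the IRE1 arm 2, 2 and 4 of 8 did, with medians of -0.05, -0.08 and -0.003. Of all tested genes 47.2%, 48.3% and 46.1% had a higher estimate. The difference between arms was not tested. Members of an arm share mice and vary together, so that these counts are not independent. The 3 comparisons also share the 7 WT mice. With Xist as a covariate, only 4 of 15 ATF6-arm members were higher in KI-96, with a median of -0.13, whereas 14 in KI-571 and 13 in KI-FL were. Without KI-96 replicate 3, the library with the largest share of reads assigned to no feature, 14 of 15 were higher in KI-96. The arm then had a median of 0.15, and the PERK-ATF4 median was 0.09. Against WT replicates 1 to 4 the ATF6-arm counts were 8, 12 and 11 and the medians 0.03, 0.05 and 0.11.

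**Figure D1:**
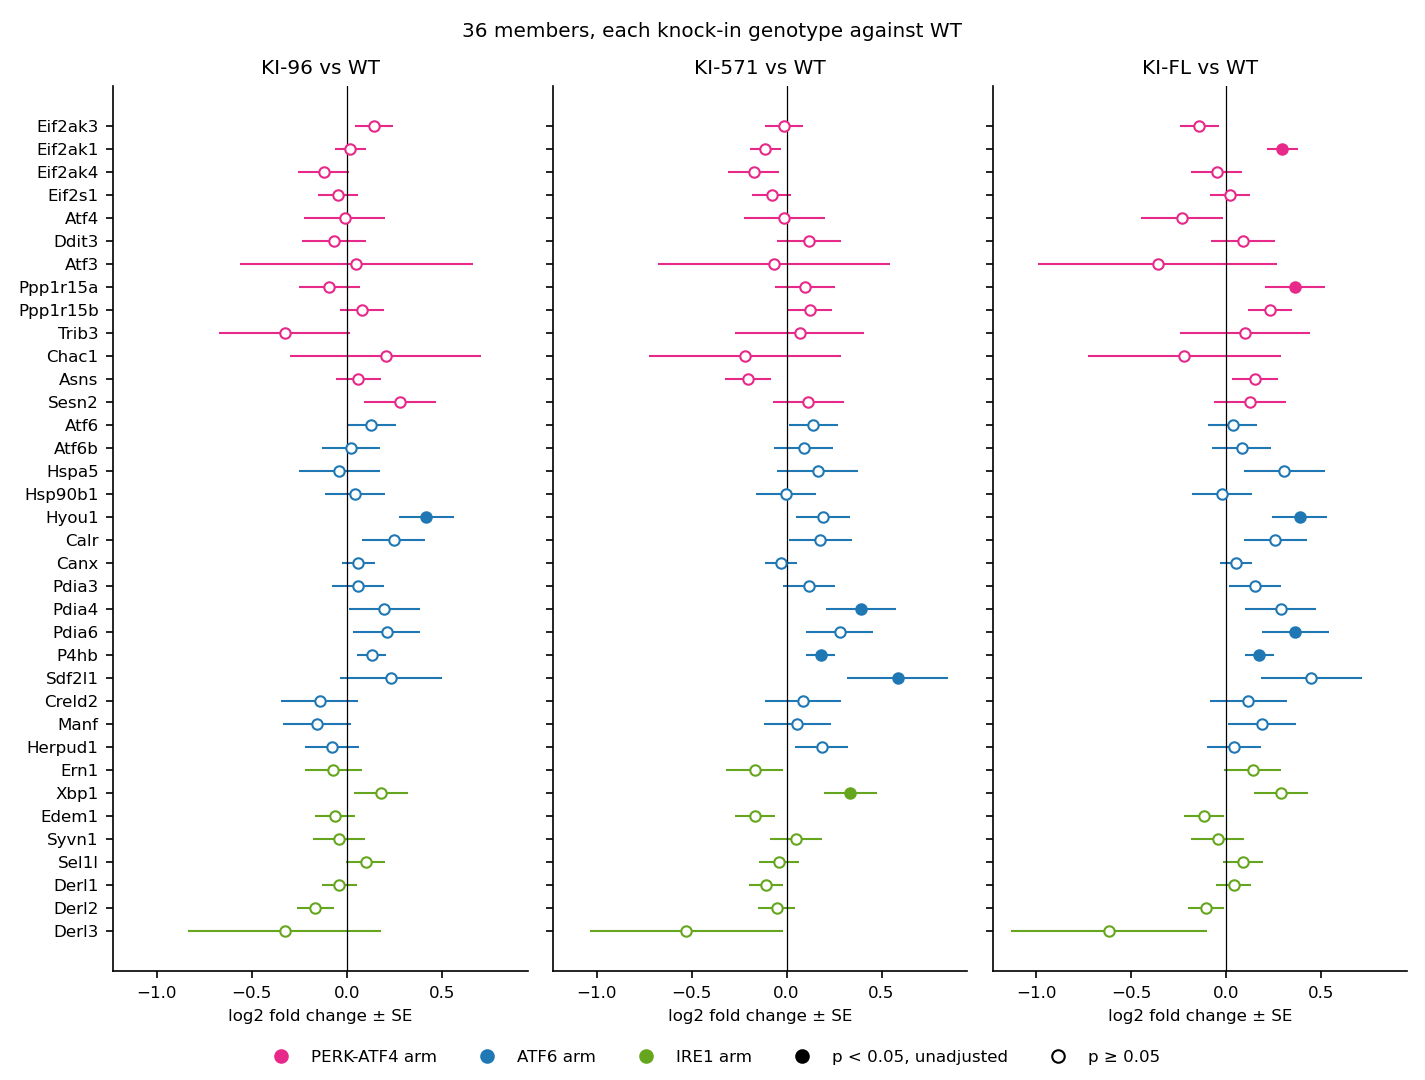
Log2 fold change of each of the 36 members against WT, with a panel for each KI genotype, with its standard error (SE), coloured by arm. Filled points have an unadjusted p under 0.05, which are 1, 4 and 5 members in the 3 panels, all to the right of 0.

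The level of each arm in a mouse, taken as the mean log2 CPM of its members, overlapped between all genotypes. In the ATF6 arm, WT mice ranged from 6.12 to 6.75 with a median of 6.22, and WT replicates 1 and 2, at 6.59 and 6.75, lay above the other 5, which reached at most 6.25. The 4 KI-571 mice lay close together, at 6.54, 6.53, 6.48 and 6.51, above those 5 WT mice and below the other 2. The KI-96 mice lay at 6.40, 6.67, 6.14 and 6.44 and the KI-FL mice at 6.58, 6.82, 6.37 and 6.31. In the PERK-ATF4 and IRE1 arms KI-FL replicate 4 was the lowest of all 19 mice, at 3.49 and 4.50. That library holds 3 members at 0. Without the members at 0 in any mouse it was the highest of the 19 in the PERK-ATF4 arm, at 4.71 over 11 members, and lay at 5.61 over 7 members in the IRE1 arm, above 13 of the other mice. The lowest PERK-ATF4 level was then that of KI-96 replicate 3, at 4.20. Marker sums of blood and vessel cells also differed, at 269 to 539 CPM in KI-571 against 139 to 273 CPM in WT, and those of liver reached 37.1 CPM in KI mice against at most 0.909 CPM in WT, and their part in these levels was not tested.

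**Figure D2:**
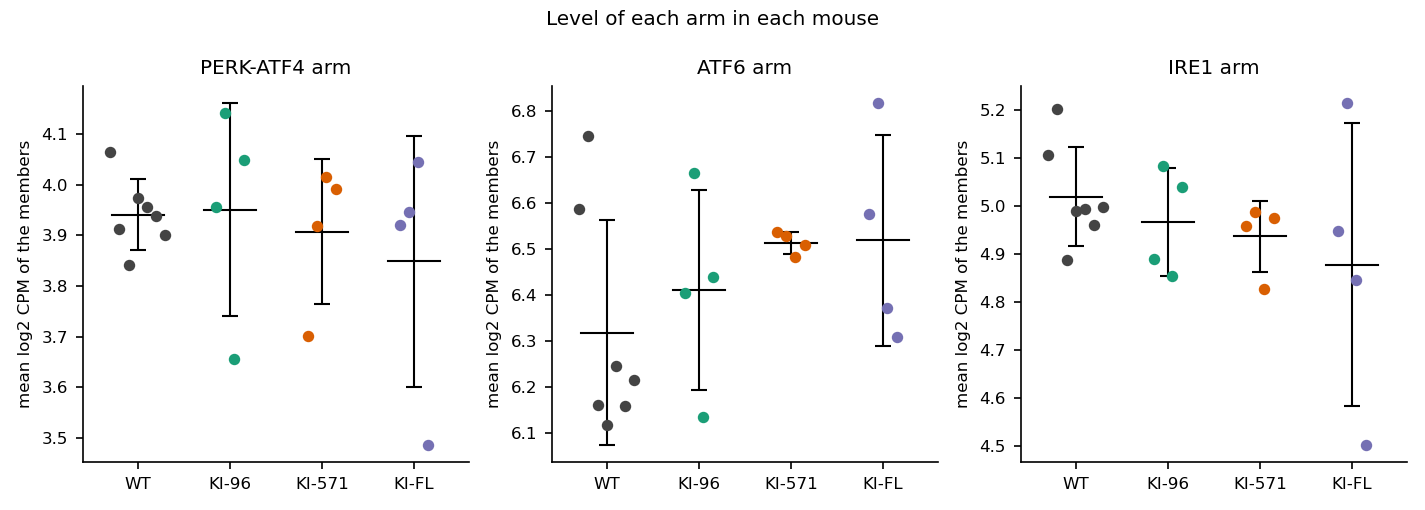
Mean log2 CPM of the members of each arm in each mouse, with a point for each mouse, a line for the mean and a bar for the SD (7 WT mice, 4 mice in each KI genotype). In the ATF6 arm 5 WT mice lie at or below 6.25 and WT replicates 1 and 2 at 6.59 and 6.75.

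Among the PERK-ATF4 genes, the clearest separation was seen for Eif2ak1 (ENSMUSG00000029613.15, chr5:143817788-143904251, plus strand, GRCm38), the kinase HRI, which senses heme shortage and relays mitochondrial stress to eIF2α. Its level was 55.8, 61.6, 70.7 and 64.7 CPM in the 4 KI-FL mice, whereas the 7 WT mice ranged from 47.1 to 55.2 CPM (median 52.4). KI-96 mice had 55.2, 55.9, 48.7 and 49.1 CPM and KI-571 mice 49.3, 48.7, 49.5 and 43.4 CPM. Every KI-FL mouse thus lay above every WT and every KI-571 mouse, and only KI-96 replicate 2 exceeded the lowest KI-FL mouse. The fold change in KI-FL against WT was 0.29 ± 0.08 on the log2 scale (SE, as for the log2 differences that follow), with an adjusted p of 0.103 in edgeR. DESeq2 gave 0.28 and an adjusted p of 0.0305. Over 28 alternatives the estimate kept its sign and stayed between 0.22 and 0.34, with adjusted p between 0.0305 and 0.598. Against KI-FL, Eif2ak1 was also lower in KI-571 mice by an estimate of -0.41 ± 0.09 (adjusted p = 0.131 in edgeR and 0.0150 in DESeq2) and in KI-96 mice by -0.28 ± 0.09 (adjusted p = 0.435 in edgeR). Without KI-FL replicate 4 the difference from WT was 0.28 (adjusted p = 0.211 in edgeR). Exons of Eif2ak1 overlap those of Aimp2 and Ankrd61 on the other strand, the strand setting of the counting is not stated, and in KI-FL Aimp2 had an estimate of 0.44 (adjusted p = 0.257) and Ankrd61 of -0.13 (adjusted p = 0.909), so that reads of the pair may not be fully told apart. Exons of Eif2ak3, Ppp1r15b, Hsp90b1, Manf and Derl2 also overlap exons on the opposite strand, as do those of Ddit3, Ppp1r15a, Pdia3, Pdia6 and Syvn1 over shorter stretches.

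Ppp1r15a (GADD34, ENSMUSG00000040435.12, chr7:45522916-45526268, minus strand), the inducible phosphatase subunit that returns eIF2α to its unphosphorylated state, showed a like order. KI-FL mice had 17.7, 17.1, 15.8 and 14.4 CPM, above all 7 WT mice, which ranged from 11.6 to 13.9 CPM (median 12.6). KI-96 mice spread from below to above WT at 9.74, 15.7, 7.97 and 14.0 CPM, and so did KI-571 mice at 10.2, 16.4, 13.6 and 13.9 CPM. The difference of KI-FL from WT was 0.36 ± 0.16 (adjusted p = 0.248), and KI-96 lay below KI-FL by an estimate of -0.45 ± 0.18 (adjusted p = 0.486). Without KI-96 replicate 3 the difference of KI-96 from WT was 0.06. The constitutive partner Ppp1r15b had an estimate of 0.23 ± 0.12 in KI-FL against WT (adjusted p = 0.316). Its level was 96.9 CPM in KI-FL replicate 4, the library with many genes at 0. In the other KI-FL mice it was 68.1 to 70.6 CPM, within the WT range of 52.2 to 72.4 CPM. Eif2ak1, Ppp1r15a and P4hb were the 3 members for which every KI-FL mouse lay above every WT mouse, beside 2.9% of all tested genes, and 0 members lay below, beside 2.38%. In KI-571 this held for P4hb (0.88% of all genes) with 0 below (0.67%), and in KI-96 for 0 members above (0.599%) and 0 below (0.643%).

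**Figure D3:**
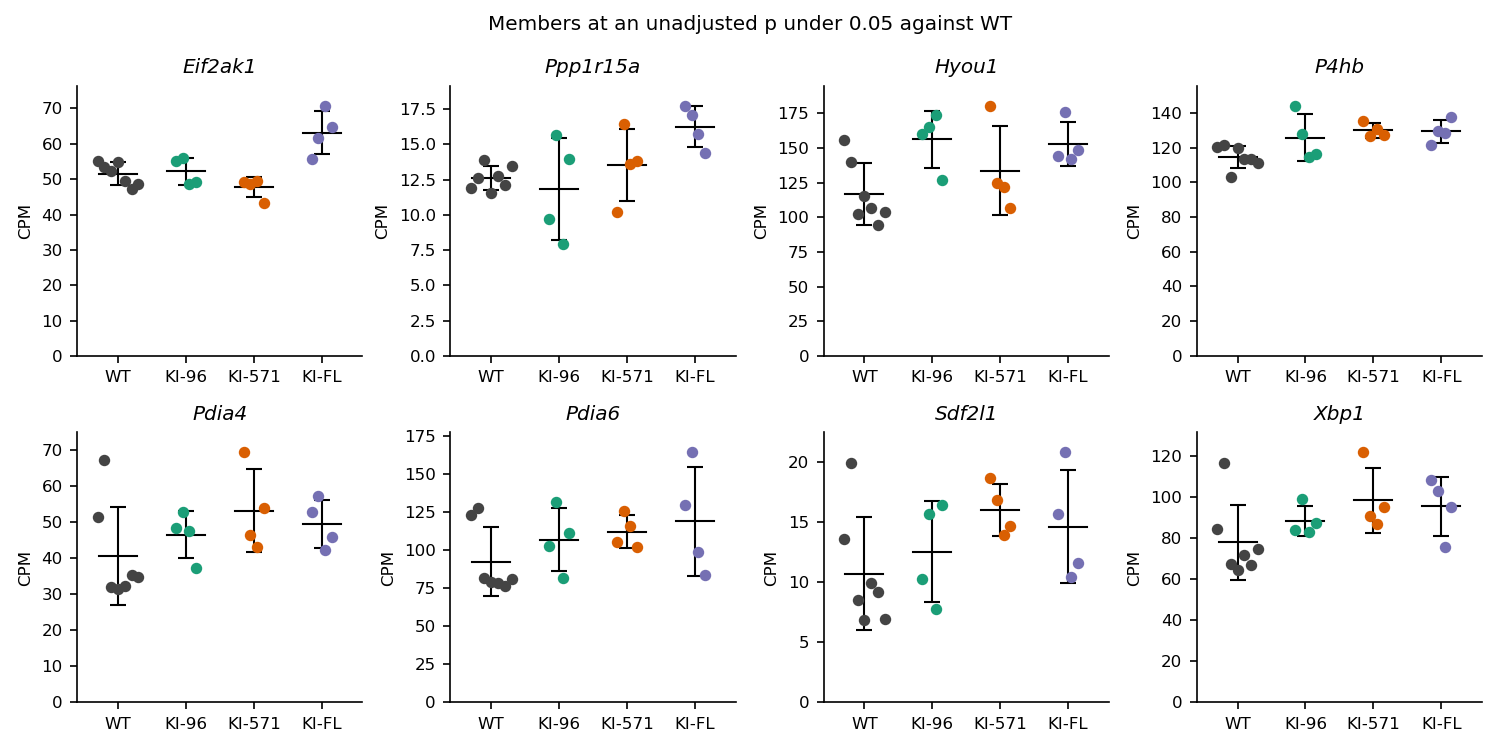
CPM of the 8 members at an unadjusted p under 0.05 against WT, with a point for each mouse, a line for the mean and a bar for the SD (7 WT mice, 4 mice in each KI genotype). KI-FL mice lie above all WT mice in Eif2ak1, Ppp1r15a and P4hb, while WT replicates 1 and 2 reach 123 and 128 CPM in Pdia6 and overlap with the KI mice.

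Eif2ak3, the ER sensor PERK, lay close to WT in the 3 KI genotypes. WT mice ranged from 21.7 to 24.6 CPM (median 23.3). KI-96 mice had 24.2, 28.9, 22.3 and 26.9 CPM, KI-571 mice 21.5, 22.5, 24.6 and 23.4 CPM and KI-FL mice 23.4, 22.8, 20.9 and 17.1 CPM, the last being the library with many genes at 0. The groups overlapped, and the 95% intervals of the log2 differences from WT were -0.07 to 0.35, -0.22 to 0.20 and -0.35 to 0.07. KI-96 exceeded KI-FL by 0.28 ± 0.11 (adjusted p = 0.499). Between KI-96 and KI-FL, 3 members passed the unadjusted threshold (Eif2ak3, Eif2ak1 and Ppp1r15a), beside 8.9% of all genes in either direction, and between KI-571 and KI-FL 2 passed (Eif2ak1 and Asns), beside 8.9%. Between KI-96 and KI-571, 0 members passed, beside 5.51%.

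Atf4, the factor whose translation the pathway favours, had estimates at or below WT in the mRNA of all 3 KI genotypes, none past the threshold. WT mice ranged from 53.0 to 73.5 CPM (median 62.1), and the KI-FL mice had 52.4, 56.2, 57.8 and 46.0 CPM. The spread was wider in KI-96 mice, with 54.8, 77.4, 27.9 and 87.7 CPM, and in KI-571 mice, with 36.5, 67.3, 76.3 and 67.7 CPM. KI-96 replicate 3 and KI-571 replicate 1 thus lay below every other mouse, and the groups overlapped. The log2 differences from WT were -0.01 ± 0.21 in KI-96, -0.01 ± 0.21 in KI-571 and -0.23 ± 0.21 in KI-FL (adjusted p of 0.599 or above in edgeR). Without KI-96 replicate 3 the estimate in KI-96 was 0.23 (adjusted p = 0.862 in edgeR).

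Ddit3 (CHOP), a pro-apoptotic target of ATF4, likewise did not separate the genotypes. WT mice had 11.6 to 16.5 CPM (median 14.7), KI-96 mice 15.1, 16.2, 8.95 and 14.6, KI-571 mice 12.7, 17.9, 19.7 and 12.03, and KI-FL mice 13.1, 13.1, 18.3 and 16.3 CPM. Its log2 differences from WT were -0.07 ± 0.17, 0.12 ± 0.17 and 0.09 ± 0.17, in the same order of genotypes, and without KI-96 replicate 3 that of KI-96 was 0.09. The ATF4 and CHOP targets Trib3, Chac1 and Sesn2 and the factor Atf3 were low, with WT means of 1.82, 3.73, 7.75 and 0.881 CPM, and no call was made for any of them, with SE from 0.19 to 0.63 in the comparisons with WT. Asns, which makes asparagine and is a widely used readout of ATF4, was higher, at 57.8 to 75.8 CPM in WT mice (median 64.5). KI-571 mice had 73.0, 42.1, 51.9 and 59.9 CPM and KI-FL mice 66.9, 62.2, 78.8 and 81.6 CPM, and KI-571 lay below KI-FL by -0.35 ± 0.14 (adjusted p = 0.468), with overlap between the groups. The substrate Eif2s1 (eIF2α) and the amino acid sensor Eif2ak4 (GCN2) had estimates between -0.17 and 0.02 against WT.

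In the ATF6 arm, the 2 sensor genes were close to WT. Atf6 ranged from 74.6 to 113 CPM in WT mice (median 87.2), with 104, 103, 117 and 73.3 CPM in KI-96, 126, 92.9, 93.2 and 87.5 CPM in KI-571 and 91.3, 95.2, 83.3 and 102 CPM in KI-FL mice. The log2 differences were 0.13 ± 0.13, 0.14 ± 0.13 and 0.03 ± 0.13, and the groups overlapped. Its relative Atf6b had estimates of 0.02 to 0.09.

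Hyou1 (ENSMUSG00000032115.14, chr9:44379490-44392369, plus strand), an ER chaperone of the Hsp110 kind that exchanges the nucleotide of BiP, was the member with the smallest p in the mean of the KI genotypes against WT. Its level was 160.0, 165, 173 and 127 CPM in KI-96, 180.2, 125, 122 and 107 CPM in KI-571 and 144, 176, 142 and 148 CPM in KI-FL mice. WT mice ranged from 94.3 to 156 CPM (median 107), and WT replicates 1 and 2, at 156 and 140.0 CPM, overlapped with the KI mice, while the other 5 reached at most 115 CPM. The log2 difference was 0.42 ± 0.14 in KI-96 (adjusted p = 0.569), 0.19 ± 0.14 in KI-571 (adjusted p = 0.856) and 0.39 ± 0.14 in KI-FL (adjusted p = 0.186), and the mean of the 3 was 0.33 ± 0.11 (adjusted p = 0.202). In KI-96 it was 0.16 with Xist as a covariate and 0.28 against WT replicates 1 to 4.

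P4hb (ENSMUSG00000025130.11, chr11:120560298-120573253, minus strand), a protein disulfide isomerase, had the smallest spread among WT mice, relative to its level, of the ATF6-arm genes. KI-571 mice had 135, 126, 131 and 127 CPM and KI-FL mice 122, 129.8, 128 and 138 CPM, all above the WT range of 103 to 121 CPM (median 114). KI-96 mice, with 144, 128, 114 and 116 CPM, overlapped with WT. The log2 differences were 0.18 ± 0.08 in KI-571 (adjusted p = 0.554) and 0.17 ± 0.08 in KI-FL (adjusted p = 0.258), which correspond to 1.13-fold in both. In the mean of the KI genotypes it was 0.16 ± 0.06 (adjusted p = 0.246). The unadjusted p of edgeR in KI-FL was 0.0328, and 0.103 without KI-FL replicate 4, the highest of its group. For KI-571 that p was 0.0279, and 0.0711 without KI-571 replicate 1.

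The other disulfide isomerases and Sdf2l1, a cofactor of BiP, overlapped more, and WT replicates 1 and 2 were as high as many KI mice. Pdia4 was 51.3 and 67.2 CPM in these 2 WT mice and 31.5 to 35.3 CPM in the other 5. KI-571 mice had 69.3, 46.5, 43.2 and 53.9 CPM, KI-96 mice 48.5, 52.7, 47.7 and 37.4 CPM and KI-FL mice 52.8, 57.2, 42.3 and 46.0 CPM, so that all 12 KI mice exceeded these 5 WT mice and none exceeded the higher of the 2 but KI-571 replicate 1. The split of the WT mice into 2 and 5, here and elsewhere in this arm, was made from the levels themselves. A separation from the 5 is therefore a description and was not tested. The difference from WT was 0.39 ± 0.19 in KI-571 (adjusted p = 0.627).

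Pdia6 (ENSMUSG00000020571.12, chr12:17266545-17284770, plus strand) was 123 and 128 CPM in WT replicates 1 and 2 and 76.2 to 81.7 CPM in the other WT mice. KI-FL mice had 129.6, 164, 98.6 and 83.5 CPM, KI-571 mice 105, 126, 116 and 102 CPM and KI-96 mice 103, 132, 81.4 and 112 CPM. The groups overlapped, and the difference was 0.36 ± 0.18 in KI-FL (adjusted p = 0.298) and 0.28 ± 0.13 in the mean of the KI genotypes (adjusted p = 0.385). Without KI-FL replicate 4 it was 0.50, and without KI-FL replicate 2 it was 0.17 (adjusted p = 0.636).

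Sdf2l1 (ENSMUSG00000022769.9, chr16:17130138-17132383, minus strand) was 14.0 to 18.7 CPM in the 4 KI-571 mice, with 18.7, 16.9, 14.0 and 14.7 CPM. WT mice ranged from 6.85 to 19.99 CPM (median 9.20), with WT replicate 2 the highest. KI-96 mice had 10.3, 15.7, 7.75 and 16.4 CPM and KI-FL mice 15.7, 20.8, 10.4 and 11.6 CPM. The difference of KI-571 from WT, 0.59 ± 0.27, was the largest upward estimate among the members against WT in the 3 KI genotypes, and it was also imprecise (adjusted p = 0.590). Without WT replicate 2 the estimate was 0.81, and against WT replicates 1 to 4 it was 0.39.

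Hspa5 (ENSMUSG00000026864.13, chr2:34771970-34777547, plus strand), the major Hsp70 of the ER and the usual marker of this response, did not separate the genotypes. WT mice ranged from 170.0 to 448 CPM (median 224), the widest range of any group, with replicates 1 and 2 at 313 and 448 CPM. KI-571 mice had 282, 288, 283 and 299.5 CPM, KI-96 mice 235, 327, 190.1 and 247 CPM and KI-FL mice 348, 429.9, 229.6 and 264 CPM. The log2 differences from WT were -0.04 ± 0.21, 0.16 ± 0.21 and 0.31 ± 0.21 in the order KI-96, KI-571, KI-FL, with a 95% interval of -0.14 to 0.75 in KI-FL. Without WT replicate 2 the estimate in KI-FL was 0.50 (adjusted p = 0.185). Of the members not yet described, Calr had estimates of 0.25, 0.18 and 0.26, Hsp90b1 (GRP94) of 0.04, -0.001 and -0.02, and Canx of 0.06, -0.03 and 0.05. Pdia3, Creld2, Manf and Herpud1 lay between -0.16 and 0.19. Each of these 7 had an unadjusted p above 0.05 in every comparison with a single KI genotype.

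**Figure D4:**
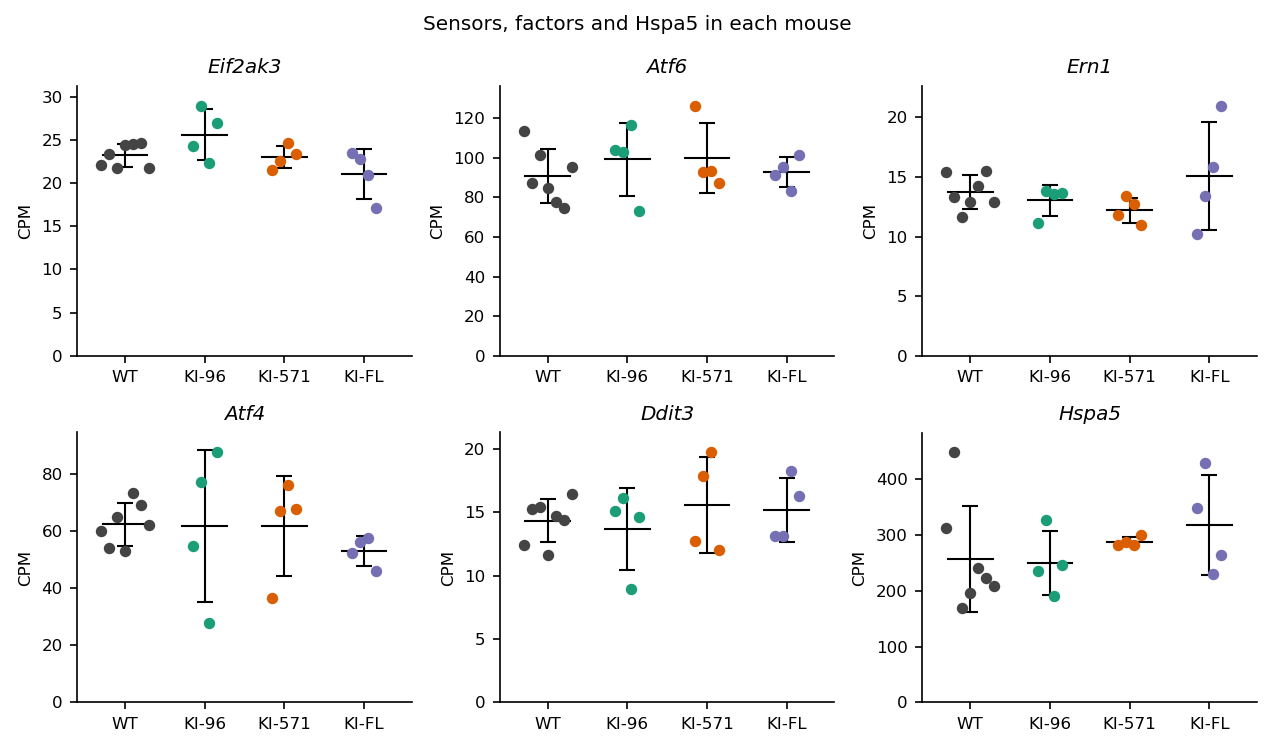
CPM of the sensors Eif2ak3, Atf6 and Ern1, the factors Atf4 and Ddit3 and the chaperone Hspa5, with a point for each mouse, a line for the mean and a bar for the SD (7 WT mice, 4 mice in each KI genotype). The genotypes overlap in all 6 genes, and in Hspa5 WT replicates 1 and 2 lie at 313 and 448 CPM.

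In the IRE1 arm, Xbp1 (ENSMUSG00000020484.18, chr11:5520659-5525893, plus strand) was the single member at an unadjusted p under 0.05 against WT, in KI-571 and in the mean of the KI genotypes. WT mice ranged from 64.7 to 117 CPM (median 72.1), where WT replicate 2 was the highest and the other 6 reached at most 84.7 CPM. KI-571 mice had 122, 90.9, 86.8 and 95.2 CPM, KI-FL mice 108, 103, 75.8 and 95.2 CPM and KI-96 mice 84.3, 99.3, 83.3 and 87.4 CPM. The KI-571 mice thus all lay above 6 of 7 WT mice. The log2 difference was 0.34 ± 0.14 in KI-571 (adjusted p = 0.539), 0.29 ± 0.14 in KI-FL (adjusted p = 0.304) and 0.27 ± 0.11 in the mean of the KI genotypes (adjusted p = 0.304). Without KI-571 replicate 1 the difference in KI-571 was 0.22 (adjusted p = 0.978). The choroid plexus, a secretory tissue next to the striatum, was also uneven. The sum of its 8 markers lay between 46.4 and 414 CPM in WT and between 37.5 and 94.6 CPM in KI-96. In replicates 1 to 4 it was 207, 5151, 47.5 and 5400 CPM in KI-571 and 3064, 189, 76.7 and 40.1 CPM in KI-FL. The part of this tissue in the levels of Xbp1 and of the chaperones was not tested.

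Ern1, the kinase and RNase that splices Xbp1, was low and overlapped between genotypes. WT mice had 11.7 to 15.5 CPM (median 13.4), KI-96 mice 11.1, 13.8, 13.6 and 13.7, KI-571 mice 11.8, 13.4, 12.7 and 10.96, and KI-FL mice 10.2, 13.4, 15.8 and 20.95 CPM. The KI-FL mice held both the lowest and the highest value of all 19, the highest in the library with many genes at 0. The log2 differences were -0.07 ± 0.15, -0.17 ± 0.15 and 0.14 ± 0.15. Of the ERAD genes, the ubiquitin ligase Syvn1 (HRD1) and its partner Sel1l had estimates of -0.05 to 0.10, the mannosidase-like Edem1 of -0.16 to -0.06, and the derlins Derl1 and Derl2 of -0.17 to 0.04. Derl3 was near the limit of counting, with a WT mean of 2.38 CPM and 0 to 66 reads per mouse, and its estimates of -0.33, -0.53 and -0.62 each carried an SE of 0.51.

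A second question was whether the genes of an arm vary together among mice. Over the 19 mice, log2 CPM of Hspa5 was correlated with that of 12 other ATF6-arm members and Asns with 4 ATF4 or CHOP targets, and p-values from 100000 permutations were adjusted over these 16 relations. Hspa5 was related to 9 of the 12. Of all other tested genes, 2.48% had an r with Hspa5 at or above that of Herpud1, the weakest of the 9, 0.0972% at or above that of Hsp90b1, the next, and 0.0108% at or above that of Sdf2l1, the closest. The relation was closest with Sdf2l1 (Pearson r = 0.88, Spearman rho = 0.86, adjusted permutation p = 5.33e-05), Pdia3 (r = 0.86, rho = 0.84) and Pdia6 (r = 0.86, rho = 0.86), with the same adjusted permutation p for r, of which the unadjusted value, 1e-05, is the smallest that these permutations can give. Creld2 (r = 0.83, rho = 0.91), Calr (r = 0.81, rho = 0.85), Manf (r = 0.78, rho = 0.74), Pdia4 (r = 0.77, rho = 0.78) and Hsp90b1 (r = 0.77, rho = 0.74) followed, with adjusted permutation p of 0.0003 or below for r. Herpud1 was related more weakly (r = 0.52, rho = 0.52, adjusted permutation p = 0.0399). Not past the threshold were P4hb (r = 0.45, rho = 0.47, adjusted permutation p = 0.0863), Hyou1 (r = 0.44, rho = 0.41, adjusted permutation p = 0.0870) and Canx (r = 0.28, rho = 0.16, adjusted permutation p = 0.273).

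The 2 mice farthest from the median of Hspa5 were KI-FL replicate 2 and WT replicate 2. Without them r was 0.62 to 0.84 for the 8 closer relations and 0.41 for Herpud1. After subtraction of the genotype means r was 0.77 to 0.90 for the same 8, so that the relation was also present among mice of the same genotype. Within the 7 WT mice alone, r was 0.96 for Hsp90b1 (exact permutation p = 0.000397) and 0.93 for Sdf2l1 (exact permutation p = 0.00536), and WT replicates 1 and 2 were the highest for Hspa5. All members are read from the same libraries, so that a quality shared by all genes of a library would act on them together. No relation of Asns passed, with Ddit3 (r = -0.11, rho = 0.08), Trib3 (r = 0.04, rho = 0.06), Chac1 (r = -0.29, rho = 0.01) or Sesn2 (r = 0.29, rho = 0.21), all at an adjusted permutation p of 0.269 or above. Chac1 had 0 reads in KI-FL replicate 4, where Asns lay at 81.6 CPM. Without KI-571 replicates 2 and 3, the farthest from the median of Asns, r was 0.43, 0.16, -0.43 and 0.45 in that order. Within the 7 WT mice r was -0.35, 0.61, 0.62 and 0.44, with exact permutation p of 0.131 or above. Of the 5 other ATF6-arm genes with an ERSE, 4 passed with Hspa5 (Canx did not), and of the 4 whose promoter was searched and held no motif, 3 passed (Sdf2l1, Pdia3 and Pdia4, but not P4hb).

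**Figure D5:**
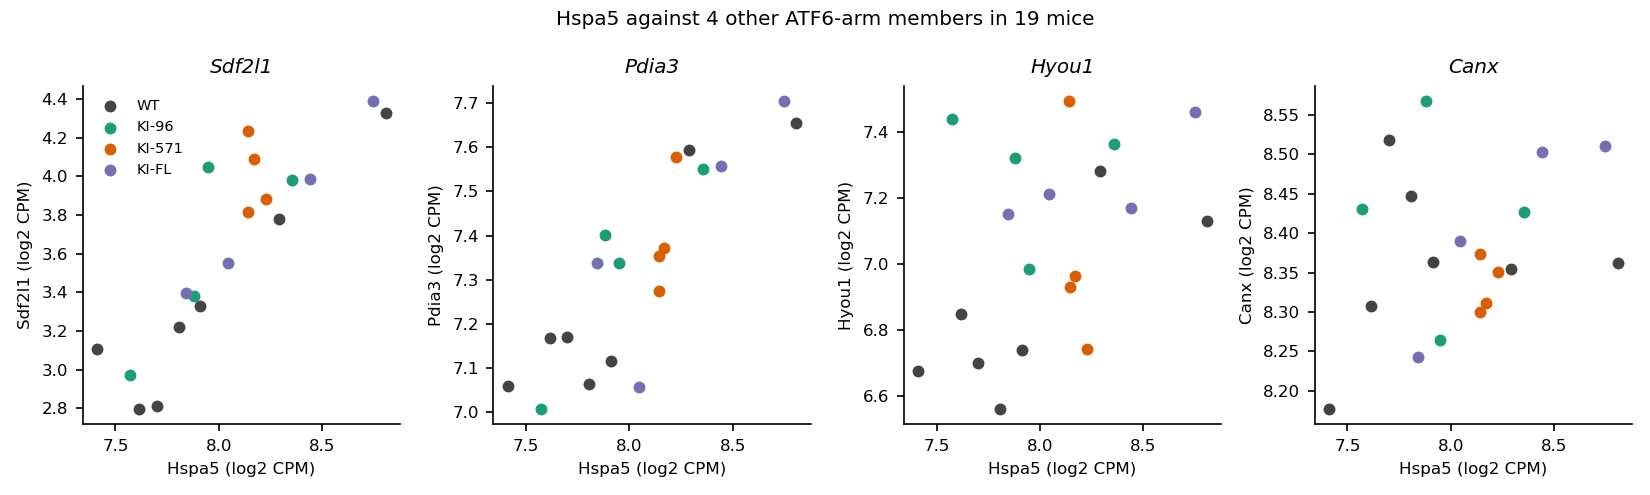
Log2 CPM of Sdf2l1, Pdia3, Hyou1 and Canx (vertical axes) against that of Hspa5 (horizontal axes) in the 19 mice, with a point for each mouse coloured by genotype. Sdf2l1 and Pdia3 follow Hspa5 with r of 0.88 and 0.86, while Hyou1 and Canx have r of 0.44 and 0.28.

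Beyond the 36 members, 75 other genes of the same pathways were listed, and 72 of them were tested. In KI-96 against WT 5 were higher and 3 lower at an unadjusted p under 0.05, in KI-571 6 and 1, and in KI-FL 9 and 1. Read against the shares of all tested genes, the 8 and 7 of 72 in either direction in KI-96 and KI-571 lay above the 7.45% and 7.72% of all genes. The 10 of 72 in KI-FL lay below its 16.7%. The 8 in KI-96 include the Y-linked Eif2s3y and its X-linked partner Eif2s3x, and all 4 KI-96 mice had high Xist. The median log2 fold changes of the 72 genes were 0.04, 0.07 and 0.05 in the 3 KI genotypes. A single gene passed the adjusted threshold, Eif2s3y, the Y-linked copy of the γ subunit of eIF2, in KI-96 against WT (adjusted p = 0.0378 in edgeR). It had 0 reads in all 4 KI-96 mice, in WT replicate 1 and in KI-FL replicate 2, the mice with high Xist, and 413 to 1696 reads in the others. Its X-linked partner Eif2s3x had an estimate of 0.86 in KI-96 (SE 0.20, adjusted p = 0.288).

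In the group of ATF6 processing and ER folding, 20 of 20 genes were tested. Sil1, the other nucleotide exchange factor of BiP beside Hyou1, had the smallest p of the group in each KI genotype. Its levels were 37.6, 31.8, 31.3 and 30.3 CPM in KI-96, 42.6, 38.4, 33.4 and 28.3 CPM in KI-571 and 35.7, 31.6, 35.7 and 57.4 CPM in KI-FL mice, while WT mice had 22.4 to 29.4 CPM. Every KI mouse but KI-571 replicate 4 lay above all WT mice. Of all tested genes, 0.599% had every KI-96 mouse above every WT mouse, and 2.9% had every KI-FL mouse above every WT mouse. Sil1 was named for its small p, so that this separation is not a separate result. The log2 differences were 0.33 ± 0.14, 0.45 ± 0.14 and 0.62 ± 0.14 in the 3 KI genotypes, with adjusted p of 0.649, 0.286 and 0.0573 in edgeR, and DESeq2 gave 0.00866 for KI-FL. Without KI-FL replicate 4, which held the highest value, the difference in KI-FL was 0.40 (adjusted p = 0.186). Creld1 in KI-FL (0.24), Fkbp2 in KI-571 (0.26) and Ppib in KI-96 (-0.29) had the second smallest p of the group.

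Of the IRE1 and ERAD group, 18 of 19 genes were tested. Os9, a lectin that hands misfolded glycoproteins to the HRD1 complex, had estimates of 0.22 ± 0.09 in KI-96 and 0.31 ± 0.09 in KI-571, with adjusted p of 0.636 and 0.226 in edgeR and 0.0410 for KI-571 in DESeq2. The ubiquitin-conjugating enzyme Ube2g2 was 52.4, 51.5, 49.7 and 51.0 CPM in KI-FL mice and 34.2 to 46.3 CPM in WT mice, so that the groups did not overlap (0.36 ± 0.09, adjusted p = 0.0832 in edgeR and 0.0171 in DESeq2). In 2.9% of all tested genes every KI-FL mouse likewise lay above every WT mouse, and Ube2g2 was named for its small p. Ufd1 had an estimate of -0.26 ± 0.10 in KI-96. Among 25 tested ATF4 and CHOP targets, Slc7a5, an amino acid transporter, had estimates of 0.39 ± 0.15 in KI-571 and 0.35 ± 0.15 in KI-FL, Stc2 of 0.82 ± 0.25 in KI-FL (adjusted p = 0.119 in edgeR and 0.0430 in DESeq2) and Slc7a11 of -0.34 ± 0.14 in KI-571. Aars (0.20) and Atf5 (0.22) had the smallest p of that group in KI-96. Of the 9 genes of eIF2 and eIF2B, the eIF2B subunits Eif2b5 (0.21 in KI-571 and 0.17 in KI-FL), Eif2b4 (0.14 in KI-571) and Eif2b2 (0.33 in KI-FL) had the smallest p, with adjusted p of 0.290 or above.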

How the data were processed

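RNA from the striatum of 19 mice was sequenced in bulk. The authors trimmed adapters with BBduk, aligned the reads to mouse build GRCm38 with STAR and counted them on genes with HTSeq, and the deposited values are raw counts for each gene and mouse. Their versions, annotation and strand option are not given in the sources used here. The 5 summary lines of the counter were left out, as were 4 columns that match none of the mice analysed. Genotypes were taken from the labels. The study's correction for the batch of sacrifice could not be repeated, since the batch of each mouse is not given in the sources used here, and the study left out 1 WT mouse that the sources used here do not name, so that all 7 WT mice were used.

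Genes were kept by filterByExpr of edgeR 4.0.16 (a minimum count of 10 and a minimum total of 15), counts were scaled with TMM, and all 19 mice entered a single quasi-likelihood fit with a coefficient for each genotype, with Benjamini-Hochberg adjustment over all 18521 tested genes. Log2 CPM used a prior count of 2. Adjusted p-values in the text are from edgeR unless DESeq2 1.42.0 is named. Alternatives were DESeq2, its size factors in edgeR, no filter, a filter of 10 counts in 4 mice, Xist or 1 surrogate variable (sva 3.50.0) as covariate, only the groups compared, WT replicates 1 to 4, the replicate number as a block, and leaving out each mouse. The fit was tested on simulated counts. Lengths and positions came from GENCODE M21, which held 54165 of the 54232 genes. Promoters came from RefSeq.

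Values in every mouse were given for members at an unadjusted p under 0.05 for a KI genotype, or the mean of the 3, against WT, and for the sensors and the factors Atf4, Xbp1, Ddit3 and Hspa5. Asns was added because it differed between KI genotypes. Other pathway genes were named if they passed the adjusted threshold or had the 2 smallest p of their group, and 1 gene that met this rule is not reported here. The members and lists were chosen with earlier results of these data known. Each replicate is a separate mouse.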

Additional observations from a re-analysis of the deposited data

Results flagged for a closer look

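In 156 groups of 4 or 7 mice, a mouse was marked where its gap to the nearest mouse was large against the range of the group, and 8 were marked, the number that chance gives. On the log2 CPM scale, Eif2ak1 was 5.44 in KI-571 replicate 4 against 5.61 to 5.63 in the others of its group. Atf4 was 5.19 and Atf6 was 6.98 in KI-571 replicate 1, where the others lay at 6.07 to 6.26 and at 6.45 to 6.54. Derl3 was -0.03 in KI-571 replicate 3, from 16 reads, against 0.96 to 1.03. In KI-96, Eif2s1 was 4.92 in replicate 3, against 5.09 to 5.10, and Ern1 was 3.49 in replicate 1, against 3.78 to 3.80. Ppp1r15b was 6.60 in KI-FL replicate 4, the library with many genes at 0, against 6.09 to 6.14. Herpud1 was 5.68 in WT replicate 2, against 5.22 to 5.41. Different mice were marked for most genes, and KI-571 replicate 1 was marked for 2.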

How the results depend on the processing

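Of 4032 fold changes of members under the alternatives, 31 moved by at least the SD of that gene's log2 CPM among the WT mice. For Hspa5 this SD was 0.47, above each of its estimates against WT. The count therefore does not show that the estimates are stable. DESeq2 called 1 member in KI-FL against WT and 1 in KI-571 against KI-FL, which was Eif2ak1 in both, where edgeR called 0. The count of members at an unadjusted p under 0.05 was 1, 4 and 5 for KI-96, KI-571 and KI-FL against WT. It became 3 for KI-FL with no filter, and 0, 0 and 2 for the 3 genotypes with WT replicates 1 to 4 only, in a smaller set of mice. The replicate numbers were not used as pairs. Same-numbered mice of different genotypes had a median correlation of deviations of -0.005 (-0.128 to 0.290, over 0.1 in 5 of 24 pairs). For mice of different number the median was -0.005 as well (-0.457 to 0.338, over 0.1 in 11 of 108 pairs). These correlations cannot decide whether some same-numbered mice share a batch. With the replicate block the counts were 0 for KI-571 and 2 for KI-FL. Leaving out 1 mouse gave 1 to 3 members for KI-96, 1 to 5 for KI-571 and 3 to 10 for KI-FL. The KI-96 count was 2 without WT replicate 1 or KI-96 replicate 4 and 3 without WT replicate 2 or KI-96 replicate 3. The KI-571 count was 1 without WT replicate 3, WT replicate 4 or KI-571 replicate 1 and 2 without WT replicate 5, 6 or 7. The KI-FL count was 10 without WT replicate 2 and 3 without WT replicate 3, 4, 5 or 7 or KI-FL replicate 1 or 2. The median of the PERK-ATF4 arm in KI-FL was 0.0141 with Xist as a covariate and -0.0277 with 1 surrogate variable, and it ranged from -0.0073 to 0.1392 when 1 mouse was left out, compared with -0.0626 to 0.0887 in KI-96. The cause of these changes was not tested. Depth limits Atf3, Trib3, Chac1 and Derl3.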
